A study of Mus musculus with 16 samples.

Results

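Cells of the mouse olfactory mucosa that lacked the green fluorescence of an activity reporter (GFP- cells) were compared between mice given an odor and mice given filtered air. The samples were chosen by their titles. All 8 GFP- samples entered, 4 from odor pools and 4 from vehicle pools, of 16 samples in all, and the 8 GFP+ samples were left out except where they are set beside a GFP- value. Every gene with 1 symbol in the platform annotation was tested, 19505 genes in all, and 1091 of these carry an odorant receptor (Olfr) symbol, 7 of them annotated as transcribed pseudogenes.

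All mice, vehicle controls included, carried the S100a5-tauGFP reporter. The promoter of S100a5 drives the fluorescent protein, and it is active in olfactory sensory neurons that have been stimulated. Per the labels, 24 mice of both sexes, 7 to 12 weeks old, stayed singly in chambers with clean air flowing at 3.1 L/min for 40 hours. From hour 26 onward, a pulse of 10 seconds came every 20 min, either the odorant, named indole/ionone, or filtered air (the vehicle). Mucosae of 3 mice at a time were dissociated and sorted, so each sample is a pool of 3 mice on 1 Clariom S array, prepared from 50 to 100 ng of total RNA. A pair of vehicle pools has the title number 3, and the later of them is called vehicle replicate 4 here. The sources used here do not say which ionone isomer was used, at what dose, or whether the odorants were mixed. In bulk samples, fewer cells of a type and less RNA per cell cannot be told apart.

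Each olfactory sensory neuron expresses 1 odorant receptor gene from a large family. Binding of an odorant raises cyclic AMP through the G protein Gnal and the cyclase Adcy3, and the cyclic nucleotide-gated channel then depolarises the neuron. Stimulated neurons raise activity-dependent genes, S100a5 among them, so that neurons of a receptor answering the odor are expected on the GFP+ side of a sort on this reporter. The question put to the GFP- side is which receptor transcripts, or other transcripts, differ there after the odor.

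The arrays had close median levels, from 6.24 to 6.39 on the log2 scale. Correlations between GFP- samples across genes were 0.981 to 0.995, and no pair of arrays held identical values. The sample that stood apart was the GFP- sample of odor replicate 3. It lay at 57.01 on the first principal component, which held 33.46% of the variance, with vehicle replicate 3 next at 27.00 and the others between -29.19 and -1.32. Pools numbered 3 in both arms also had 3 genes of the Y chromosome (Uty, Kdm5d, Eif2s3y) at 2.76 to 3.75, against 6.42 to 12.09 in the others. The low values were under the median of the background probes on their arrays (5.78 in odor and 5.63 in vehicle replicate 3). That difference between pools was thus present once in each arm. At the low end of this component were the 3 Y-linked genes, with the largest loadings there, Camp, a neutrophil granule peptide gene, and Gm9733. At the high end were Scd1, a fatty acid desaturase gene, Cd79a, H1f2, Rmrp and Olfr910. Their differences between arms were all within 1 SE of 0, for example -0.45 ± 0.85 for Camp and 0.57 ± 0.86 for Scd1. Values without samples numbered 3 are given below for Olfr76 and for some other genes only. Genes without such a value could also move, for example from 0.81 to 0.66 for Sh2b2 and from 1.36 to 1.41 for Kcng1.

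The gate was checked against its marker genes. The GFP- minus GFP+ difference of S100a5 within a pool was below 0 in all 8 pools, between -1.86 and -0.92 (log2) after odor and between -1.68 and -0.999 after vehicle. Within GFP- samples its level was 15.31, 15.25, 14.35 and 15.07 in odor replicates 1 to 4 and 15.05, 14.86, 14.39 and 14.95 in vehicle replicates 1 to 4. These ranges overlap, and the difference between arms was 0.18 ± 0.24 (SE, n = 4 against 4). Omp, which marks sensory neurons once they are mature, stood at 18.35 to 18.51 in odor and 18.11 to 18.49 in vehicle samples, near the top of the scale. RNA of mature sensory neurons was thus present in GFP- samples. Ngp, a neutrophil granule protein, was at 16.38 to 17.68 and 16.63 to 17.51, and Cyp2g1, a detoxifying enzyme of supporting cells, at 15.52 to 15.70 and 15.37 to 15.99.

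One gene was called different between odor and vehicle in GFP- cells, the odorant receptor Olfr76. The call held in 9 of 18 alternative fits, described below. Olfr76 was lower after odor, with a difference of -1.95 on the log2 scale, a 3.87-fold higher level in vehicle samples. No gene was called higher. By limma with Benjamini-Hochberg adjustment over all 19505 genes, 0.00513% of genes passed a threshold of 0.05 (either direction), and the gene next in order had an adjusted p of 1.00. At an unadjusted p under 0.05, limma had 399 genes higher (2.05% of all genes) and 298 lower (1.53%), 697 in all or 3.57%. Where no gene differs, such a threshold passes a share of about 0.05, so these counts alone are no evidence of a difference.

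Olfr76 (NM_146682, synonyms MOR215-3 and V5) is a protein-coding receptor gene of chromosome 19. In GFP- samples of odor replicates 1 to 4 its log2 level was 7.34, 7.97, 7.51 and 7.48. In vehicle replicates 1 to 4 it was 9.39, 9.49, 9.24 and 9.99. The groups did not overlap, as was so for 1.11% of all genes in this direction, and a gap of 1.27 separated the highest odor sample from the lowest vehicle sample. Both groups lay above the median of the antigenomic background probes, which ran from 5.63 to 6.05 over these arrays. The means were 7.57 ± 0.28 and 9.53 ± 0.33 (SD, n = 4 pools each). Odor minus vehicle was -1.95 ± 0.21 (SE), with a 95% interval from -2.41 to -1.50 and an adjusted p of 0.0292 by limma.

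The size of the Olfr76 difference changed little when 1 sample was left out, from -1.80 to -2.09. Olfr76 had the smallest p of all genes in each of these 8 fits. They share most samples with the full fit, so this rank is no independent evidence. The call at the threshold did not hold as well. It was kept without odor replicate 2 (adjusted p = 0.0368). It was lost without odor replicate 1 (0.188), 3 (0.164) or 4 (0.216) and without vehicle replicate 1 (0.111), 2 (0.213), 3 (0.0642) or 4 (0.0903). With both pools that lacked Y-linked expression left out, the difference was -2.03 ± 0.23 and adjusted p = 0.210. With ordinary variances per gene in place of moderated ones, no gene passed (adjusted p = 0.602 for Olfr76, at rank 3 by p).

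**Figure D1:**
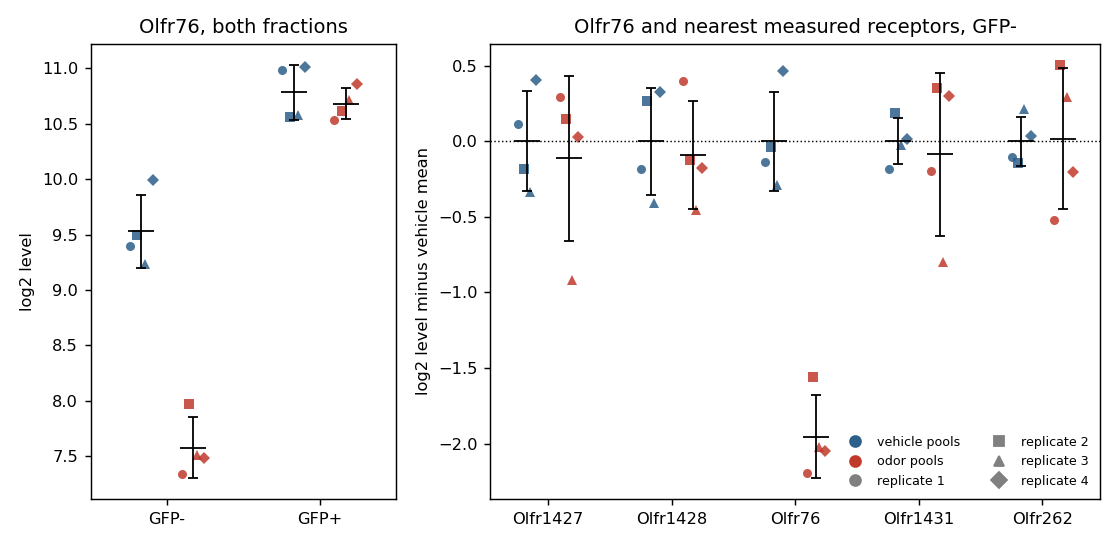
Left, log2 level of Olfr76 in GFP- and GFP+ samples. Right, GFP- levels of Olfr76 and the 4 measured receptor genes nearest to it on chromosome 19, each minus the mean of its vehicle samples. Points are pools of 3 mice (symbols mark the replicate number), horizontal bars the mean and error bars the SD of 4 pools. The 4 odor samples of Olfr76 lie at 7.34 to 7.97 in GFP- cells, under all 4 vehicle samples, whereas the groups overlap in GFP+ cells and for the neighbours.

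In the GFP+ samples of the same pools, Olfr76 was at 10.53, 10.61, 10.72 and 10.86 after odor and at 10.99, 10.57, 10.58 and 11.02 after vehicle. Those groups overlapped, and the difference of -0.10 ± 0.15 did not pass (adjusted p = 0.995). The difference between fractions was tested on the GFP- minus GFP+ values within pools. These were -3.38 to -2.64 in odor pools and -1.59 to -1.02 in vehicle pools. They hold the same GFP- values as the result above and are no independent evidence. The odor effect in GFP- minus that in GFP+ samples was -1.85 ± 0.22. This was first of all genes by p, but its adjusted p of 0.0860 by limma did not pass. limma called 0 genes in that test, and 654 had an unadjusted p under 0.05.

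Receptor genes next to Olfr76 served as a comparison, since receptor genes lie in clusters and can share regulatory elements. On one side, Olfr1428 was at 14.21, 13.69, 13.36 and 13.63 after odor and at 13.63, 14.08, 13.41 and 14.14 after vehicle, a difference of -0.09 ± 0.23. Olfr1427, next beyond it, had a difference of -0.11 ± 0.27. On the other side, Olfr1431 was at 9.31, 9.86, 8.71 and 9.80 after odor and at 9.33, 9.69, 9.48 and 9.53 after vehicle, a difference of -0.09 ± 0.25. Olfr262 had a level under the background medians on every array. The 95% intervals were from -0.71 to 0.49 for Olfr1427, -0.59 to 0.41 for Olfr1428 and -0.63 to 0.45 for Olfr1431. All 3 intervals lie above the interval of Olfr76. Since Olfr76 had the smallest p of all genes, such a contrast with other genes follows largely from that rank. Whether these genes share regulation was not tested.

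**Figure D2:**
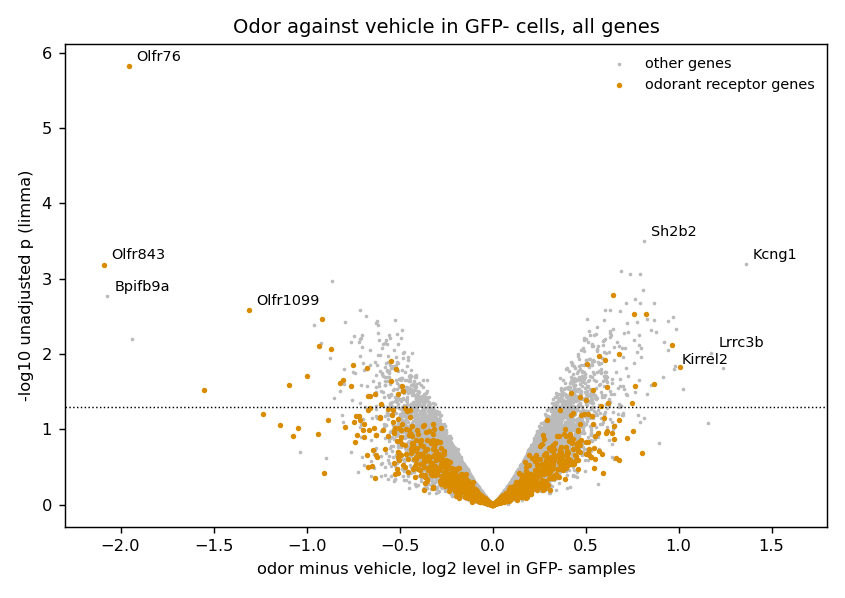
Odor minus vehicle log2 level in GFP- samples (x axis) against -log10 of the unadjusted limma p (y axis) for 19505 genes, 4 pools against 4. Odorant receptor genes are orange and the dotted line marks the unadjusted level of 0.05. Olfr76 stands apart at -1.95, and the next genes by p are Sh2b2, Kcng1 and Olfr843.

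Over the receptor family the arms were close. Of 1091 receptors, 526 had a difference above 0 and 565 below, with a median of -0.01, beside -0.01 over all genes. At an unadjusted p under 0.05, 19 were higher and 24 lower, 43 or 3.94%, near the 3.57% of all genes. The odor and vehicle groups did not overlap for 5 receptors higher and 4 lower after odor, where 1.37% and 1.11% of all genes did so. These shares of the family lie near those of all genes or below them. The median half-width of the unadjusted 95% interval was 0.63 for a receptor and 0.44 for a gene. For a receptor with that median half-width, a difference under about 0.63 could not be told from 0 even without adjustment. Intervals were narrower for some receptors, such as Olfr960 (0.31 to 0.99), and wider for others, such as Olfr843 (-3.06 to -1.12). Differences over 0.63 could also fail after adjustment over all genes, as did Olfr843 at -2.09 ± 0.44 (SE). In 822 receptors every array lay above its background median.

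Behind Olfr76, the receptors with the smallest p had large differences and a larger spread. None of them passed (adjusted p = 1.00 by limma). Olfr843 was at 6.09, 5.31, 6.25 and 5.94 after odor and at 9.17, 8.56, 6.92 and 7.31 after vehicle. The groups did not overlap, and its difference of -2.09 ± 0.44 was the largest in size of any gene, with an SD of 1.05 among vehicle pools. Odor replicates 2 and 4 lay under the background median of their array. Without replicate 3 of both arms the difference was -2.56 ± 0.43. In GFP+ samples its difference was -1.12 ± 0.30, also short of the threshold (adjusted p = 0.891).

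Olfr1099 was at 7.96, 7.48, 6.62 and 8.39 after odor and at 9.01, 8.51, 8.86 and 9.31 after vehicle. Its groups were separate too, and the difference was -1.31 ± 0.34, with 0.07 ± 0.43 in GFP+ samples. Without odor replicate 3 it was -0.98 ± 0.25. Olfr156 (-0.92 ± 0.25) and Olfr616 (-0.94 ± 0.29) had overlapping groups. In the other direction, Olfr960 was at 7.17, 6.87, 6.83 and 7.17 after odor and at 6.23, 6.46, 6.48 and 6.29 after vehicle, without overlap and with a difference of 0.65 ± 0.16. Olfr1276 followed with 0.76 ± 0.20, also without overlap, and Olfr450, with 0.68 ± 0.22, had overlapping groups. So had Olfr1049, whose vehicle samples were all under the background median, and no difference is given for it. Olfr282 was under the background median on every array.

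Receptors were frequent among genes with a difference over 2-fold, but so was spread. Of 18 such genes, 12 lower and 6 higher, 10 were receptors, and 3 of these 10 had groups that did not overlap (Olfr76, Olfr843 and Olfr1099). The other 7 receptors, named here after their values were seen, were Olfr851, Olfr1022, Olfr1220, Olfr1199, Olfr430 and Olfr1012, with differences from -1.55 to -1.05, and Olfr1047, with 1.01. Olfr851 ran from 7.18 to 9.60 after odor and from 8.30 to 10.89 after vehicle, so its groups overlapped. Receptors made up 5.59% of the genes tested and had a median SE of 0.29, against 0.20 over all genes.

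Several genes that are not receptors had separate groups and did not pass the threshold (adjusted p = 1.00 by limma for each). Such separation without overlap was found for 267 genes higher after odor (1.37% of all genes) and 217 lower (1.11%), 2.48% in all. Sh2b2, an adaptor of receptor tyrosine kinases, was at 9.91, 9.97, 10.19 and 9.82 after odor and at 9.19, 9.24, 8.92 and 9.30 after vehicle, a difference of 0.81 ± 0.16. Kcng1, a modifier subunit of voltage-gated potassium channels, was at 10.16, 8.98, 9.26 and 10.12 after odor and at 8.74, 8.23, 8.06 and 8.05 after vehicle. Its difference of 1.36 ± 0.29 was the largest positive one, and it was 1.28 ± 0.31 in GFP+ samples, which come from the same mice.

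Mettl4, of a methyltransferase family, was at 9.28 to 9.60 after odor and 8.68 to 8.96 after vehicle (0.69 ± 0.15). Ifit1, an interferon-induced antiviral gene, was at 10.83 to 11.22 and 9.94 to 10.57 (0.76 ± 0.19). Znhit6 (0.81 ± 0.19), Sh3gl2, the endophilin of synaptic vesicle retrieval (0.79 ± 0.20), and the helicase gene Helz (0.87 ± 0.22) also had every odor sample above every vehicle sample. For the transcription factor gene Elk3 all vehicle samples, at 5.02 to 5.39, lay under the background median, and its odor samples were at 5.81 to 6.18. Cnmd lay above the background median on 1 of 8 arrays.

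In the lower direction, Bpifb9a, a secreted protein gene listed here with Bowman's gland markers, was at 7.49, 6.33, 7.80 and 6.85 after odor and at 9.28, 9.56, 7.64 and 10.28 after vehicle. Vehicle replicate 3 fell within the odor samples, and the difference was -2.07 ± 0.50, with -1.52 ± 0.48 in GFP+ samples and -2.82 ± 0.34 in GFP- samples without replicate 3 of both arms (adjusted p = 0.210 by limma). Bpifb9b, a related gene of the same family that was named after its values were seen, had -1.94 ± 0.57, and cross-hybridisation between such related genes was not tested. Mpzl3 was at 7.48 to 7.94 after odor and 8.12 to 8.73 after vehicle, without overlap (-0.71 ± 0.18). Ceacam18 was at 5.08 to 5.82 and 6.09 to 6.23. Cpne6, Hoxb2 and Cyp2b13 were under the background median on every array, and no difference is given for them.

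**Figure D3:**
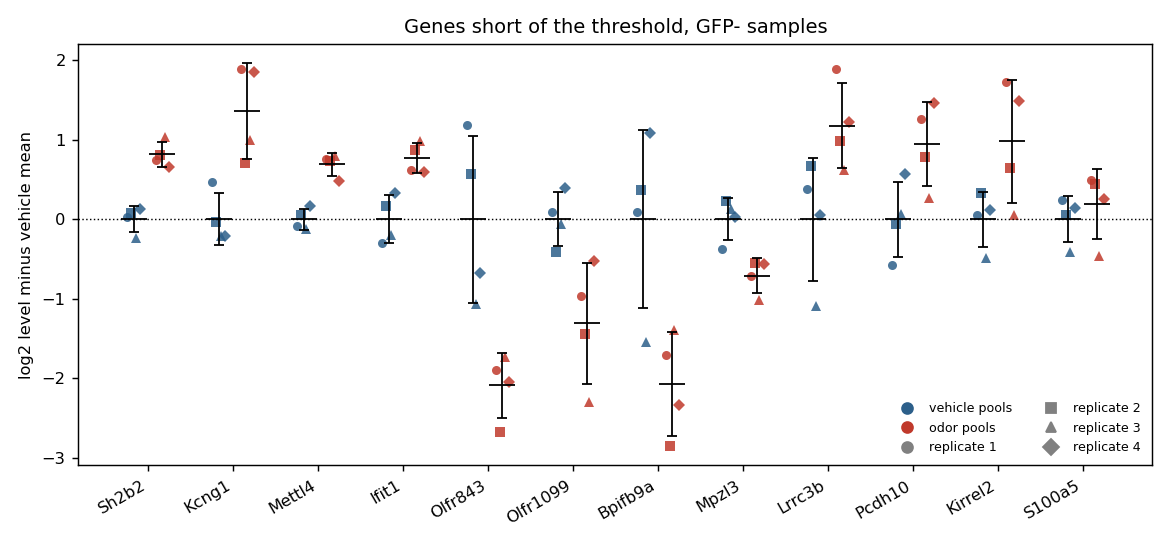
Log2 level of 12 genes in each GFP- sample minus the mean of the gene's 4 vehicle samples. Points are pools of 3 mice (symbols mark the replicate number), horizontal bars means and error bars the SD of 4 pools. None of the 12 passed the threshold. The first 8, except Bpifb9a, show no overlap between arms, while Lrrc3b, Pcdh10 and Kirrel2 overlap at odor replicate 3, and S100a5 overlaps more widely.

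Genes known to follow sensory neuron activity had the largest list median of the 30 lists described here, 0.56, against -0.01 over all genes. Of 6 such genes, 5 had a difference above 0 and 1 below, Plcxd3 at -0.03. Of the 6, 0 passed and 3 had an unadjusted p under 0.05, all of them higher after odor (2.05% of all genes were). Lrrc3b was at 13.73, 12.83, 12.47 and 13.07 after odor and at 12.23, 12.52, 10.76 and 11.90 after vehicle. Odor replicate 3 lay below vehicle replicate 2, and the difference was 1.17 ± 0.37. Pcdh10, a protocadherin of axon sorting, was at 9.74, 9.27, 8.75 and 9.95 and at 7.91, 8.43, 8.55 and 9.05, a difference of 0.94 ± 0.30.

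Kirrel2, an adhesion gene that sorts axons of like activity into glomeruli, was at 15.46, 14.37, 13.79 and 15.22 after odor and at 13.78, 14.05, 13.24 and 13.85 after vehicle. Its difference was 0.98 ± 0.34, and odor replicate 3 again fell among the vehicle samples. Without replicate 3 of both arms the differences were 1.12 ± 0.27 for Kirrel2, 1.19 ± 0.30 for Pcdh10 and 1.00 ± 0.26 for Lrrc3b, still short of the threshold (adjusted p = 0.884 by limma for each). In GFP+ samples of the same mice the differences were 0.60 ± 0.19 for Kirrel2, 0.78 ± 0.26 for Lrrc3b and 1.34 ± 0.20 for Pcdh10, with 0 genes called there by limma. S100a5, with 0.18 ± 0.24, belongs to the same list. The mean level of the list was 11.61 to 12.69 in odor and 11.38 to 12.01 in vehicle samples, with replicate 3 the lowest in each arm. The list was chosen with earlier results of these samples known, so its direction is no independent evidence.

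The 30 lists together held 345 genes, of which 14 had an unadjusted p under 0.05, 4.06% beside the 3.57% of all genes, and 0 passed with adjustment by limma. The share of all genes, 2.05% higher and 1.53% lower, is the background for the counts of each list. Sensory neuron lists other than the activity list had medians from -0.02 to 0.07. Mature sensory neuron markers had 12 of 19 members above 0 and a median of 0.04, and Kirrel2 was the 1 member with an unadjusted p under 0.05. Odor transduction and adaptation genes had a median of 0.04 and 0 of 17 members under that p, from Rgs2 at -0.21 to Camk2a at 0.31. Immature sensory neuron markers had a median of -0.02 and 0 of 18, with the growth cone gene Gap43 at -0.40 ± 0.21 and the tubulin gene Tubb3 at 0.20 ± 0.15. Receptor choice and trafficking genes had a median of 0.07 and 0 of 14, led by Reep1, of a family that helps receptors to the cell surface, at 0.35 ± 0.16. Axon sorting genes had a median of 0.06, and Pcdh10 and Kirrel2 were the 2 of 13 under that p. Of 14 trace amine-associated receptors, Taar8c, lower, was the 1 under that p, and it was above background on 1 of 8 arrays. Taar3 had a larger spread, at 7.48 to 9.05 after odor and 5.16 to 8.55 after vehicle, with a difference of 1.16 ± 0.61, and the list median was -0.01. Guanylyl cyclase D neuron genes had a median of 0.03, with 0 of 12.

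No member of the early response and stress lists had an unadjusted p under 0.05. Immediate early genes had 16 of 24 members above 0 and a median of 0.07. Fos was at 15.70, 15.34, 14.87 and 15.90 after odor and at 16.14, 15.12, 14.97 and 15.28 after vehicle, overlapping ranges with a difference of 0.08 ± 0.29 and a 95% interval from -0.56 to 0.71. Egr1 had 0.13 ± 0.27 and Jun -0.31 ± 0.16. Dissociation stress genes had 13 of 15 members below 0 and a median of -0.11, with the heat shock gene Hspa1a at the low end (-0.73 ± 0.77). They had a mean level of 9.17 to 10.29 in odor and 9.31 to 10.10 in vehicle samples. Unfolded protein response genes had a median of -0.05 with 0 of 12, and Creld2 was at 0.32 ± 0.15. Nrf2 targets had -0.11 with 0 of 9, and Gsr, glutathione reductase, was at -0.34 ± 0.20.

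Indoles are known ligands of the aryl hydrocarbon receptor, whose target Cyp1a1 is a standard readout. Of 8 measured targets, 0 passed, and the list median was 0.00. Cyp1a1 was under the background median on every array, as was the receptor's repressor Ahrr, the member of the list with an unadjusted p under 0.05. Xenobiotic metabolism genes had a median of -0.06. Cyp4b1 was at 5.28 to 5.72 after odor and 5.82 to 6.70 after vehicle, close to background, and was the 1 of 25 under that p. Interferon-induced genes had a median of -0.07, and Ifit1, described above, was the 1 of 11 under that p. Circadian clock genes had a median of -0.24 with 0 of 13, and a mean level of 8.93 to 9.65 in odor and 8.83 to 10.19 in vehicle samples, highest in replicate 3 of each arm.

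**Figure D4:**
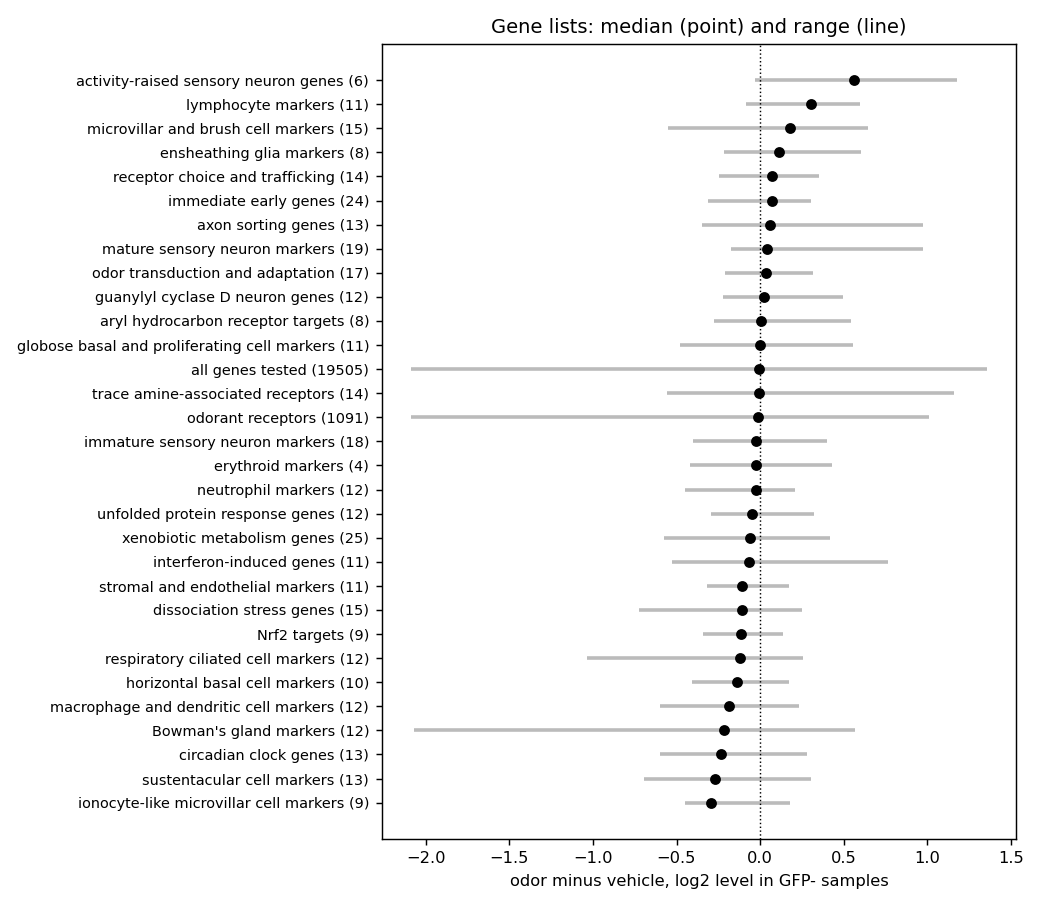
Odor minus vehicle log2 level in GFP- samples for gene lists, ordered by median. Points are medians over the members measured (number in brackets) and lines run from the lowest to the highest member. Sex-linked genes are left out. The medians lie between -0.29 and 0.56, with the activity-raised genes at the upper end.

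Markers of other cell types in the GFP- fraction varied between the pools of an arm. Neutrophil markers had a mean level of 14.51, 13.18, 13.00 and 13.85 in odor replicates 1 to 4 and 14.85, 13.86, 12.57 and 13.46 in vehicle replicates 1 to 4, highest in replicate 1 and lowest in replicate 3 of each arm. Their median difference was -0.03, with 0 of 12 under an unadjusted p of 0.05. Ionocyte-like microvillar cell markers stood at 11.59 in vehicle replicate 1 and 10.59 in odor replicate 1, and at 9.16 to 9.69 in the others, with a median difference of -0.29 and 0 of 9. Sustentacular cell markers, of the supporting cells, stood at 10.91 in vehicle replicate 1 and at 9.92 to 10.11 in the other 7 samples, with a median of -0.27 and 0 of 13. Of these 13 markers, 12 had a difference below 0, as had 9985 of all 19505 genes.

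Macrophage and dendritic cell markers had 11 of 12 members below 0, a median of -0.19 and 2 members with an unadjusted p under 0.05, where 1.53% of all genes were lower at that p. These were Csf1r, the receptor of a macrophage growth factor, at -0.49 ± 0.18, and the complement gene C1qb at -0.60 ± 0.24. The list's mean level was 7.89 to 8.26 in odor and 8.25 to 8.52 in vehicle samples, which overlap slightly. Lymphocyte markers had 9 of 11 above 0 and a median of 0.31, with the T cell gene Cd8a at 0.56 ± 0.20 under that p but above background on 3 of 8 arrays. The list's mean level was 6.98 to 7.50 in odor and 6.52 to 7.37 in vehicle samples. Bowman's gland markers had a median of -0.22, with Bpifb9a (above) and Sox9, at 0.57 ± 0.19, going opposite ways. Globose basal and proliferating cell markers had a median of 0.00, with the chromatin gene Ezh2 at 0.55 ± 0.22 and Lgr5, near background, as the 2 of 11 under that p. Mki67, a marker of dividing cells, was at -0.18 ± 0.42.

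The remaining lists had 0 members under that p. The medians were 0.18 for microvillar and brush cell, -0.12 for respiratory ciliated cell, -0.14 for horizontal basal cell, -0.03 for erythroid, 0.11 for ensheathing glia, -0.11 for stromal and endothelial and 0.00 for sex-linked genes. Of the 10 horizontal basal and 11 stromal and endothelial markers, 1 each was above the background median on all arrays. Whether differences in cell makeup between pools had a part in any gene's difference was not tested.

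**Figure D5:**
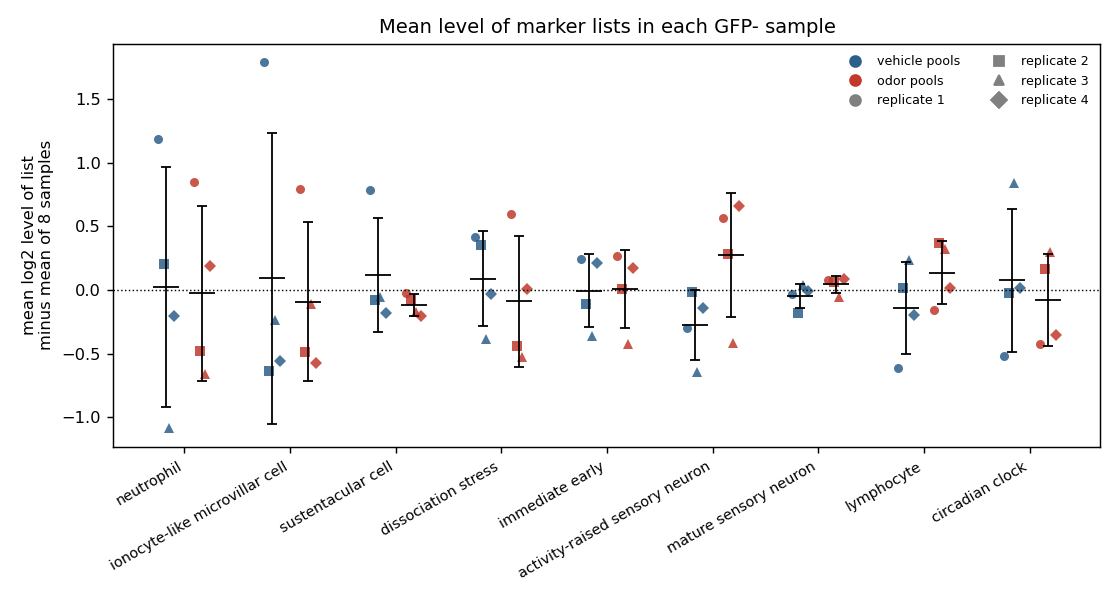
Mean log2 level of 9 gene lists in each GFP- sample, minus the mean of the 8 samples. Points are pools of 3 mice (symbols mark the replicate number), horizontal bars means and error bars the SD of 4 pools. The arms overlap in every list shown, and replicate 3 of both arms has the lowest neutrophil and the highest circadian clock gene levels of its arm.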

How the data were processed

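Expression was measured in 8 GFP- samples (4 odor pools, 4 vehicle pools), 8 GFP+ samples being used for values set beside them. The authors deposited log2 values made with Affymetrix Expression Console, per the submitters' processing notes. The version of that program and how it corrected, normalized and summarized the probes were not given in the sources used here, and base 2 was taken from the range of the values. Of 28846 probes, 19572 had 1 gene symbol, 0 several and 9274 none. All genes matched a RefSeq gene of GRCm38.p6, used for names and gene order. Where a gene had more than 1 probe (55 genes), that of the highest mean over 16 arrays stood for it. Odor was compared with vehicle with limma 3.58.1 in R 4.3.3 (lmFit and eBayes, two-sided, Benjamini-Hochberg over 19505 genes, threshold 0.05), without the replicate number as a block. Standard errors are those of the fit, with a moderated variance shared by both arms. The spread that p-values measure is that between pools, each of 3 mice. The number of arrays limits the precision. Background is the median of 23 antigenomic probes per array.

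The members and the 30 gene lists were chosen with earlier results of these data known. Named genes are Olfr76, genes past the threshold, up to 10 genes per direction and 5 receptors per direction of smallest p, 2 members of each list of smallest p, 10 context genes, the nearest measured receptors of Olfr76 and the 5 genes at each end of the first principal component. Receptors alike in protein sequence, also in the rule, were not analysed here. Genes over 2-fold were added after their values were seen. Alternatives were 2 other normalizations, a filter on mean levels under 6, the mean of probes, other variance estimates, array weights, all 16 samples in 1 fit, the replicate block and samples left out.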

Additional observations from a re-analysis of the deposited data

Results flagged for a closer look

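Among the named genes, 13 of 220 groups of 4 GFP- samples (5.91%) held a sample far from the other 3 by Dixon's criterion, which chance alone gives in about 1 in 20 groups. Single genes were set apart in odor replicate 2, where Sh3gl2 was at 7.90 (others 7.50 to 7.56) and Cbr2 at 13.04 (others 12.35 to 12.41). In odor replicate 1, Zfp36 was at 13.61 (others 12.76 to 12.89). In odor replicate 3, Ltc4s was at 5.46 (others 6.38 to 6.56).

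In vehicle replicate 1, Hepacam2, of ionocyte-like cells, was at 13.78 (others 11.45 to 11.78) and Olfr1022 at 5.09 (others 6.91 to 7.10). In vehicle replicate 2, Omp was at 18.11 (the others at 18.49) and C1qb at 7.61 (others 7.46 to 7.47). In vehicle replicate 3, Olfr1199 was at 10.31 (others 9.17 to 9.34). The Y-linked genes stood low in replicate 3 of both arms, with Uty at 3.56 in odor and 3.75 in vehicle samples, and Eif2s3y at 2.76 and 3.21.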

How the results depend on the processing

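Olfr76 passed the threshold in 9 of 18 alternatives, with differences from -1.80 to -2.09 in all of them. It passed with arrays centred on the median (adjusted p = 0.0344), quantile normalization (0.0187), low values filtered (0.0308), the mean of probes (0.0293), a variance trend (0.0333), array weights (0.0211) and all 16 samples in 1 fit with the pool as a random block (8.75e-05), where the fractions of a pool had an estimated correlation of 0.138. The filter and the mean of probes left the difference of Olfr76 at -1.95 and its SE at 0.21. Both bear on its call only through the other genes. Without moderation the difference of -1.95 had an adjusted p of 0.602 and a lower rank by p, and the counts of genes, lower genes and receptors called were 0. Without replicate 3 of both arms the difference was -2.03 (adjusted p = 0.210) and these 3 counts were 0. With 1 sample left out, each count ran from 0 to 1, and fewer samples were fitted. No gene was called higher in any alternative, and 0 of the 109 other named genes passed in any. The difference of Olfr76 between fractions ran from -1.76 to -2.004 and passed in none (adjusted p from 0.0518 to 1.00).

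With the replicate number as a block, Olfr76 remained at -1.95 (adjusted p = 0.0419) and 1 gene was called. Same-numbered pools had correlated deviations of 0.327, 0.0664, 0.332 and 0.186, and 3 of 4 correlated best with their own number, a hint from the data that the design does not give. The numbers were not treated as pairs, since 1 of the 4 correlations was near 0. In the block, the difference between fractions had an adjusted p of 0.226.

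The sign was not kept for 21 of the other named genes, none of them called, and the cause was not tested. With 1 sample left out, the differences ran from -0.25 to 0.16 for Olfr1427, -0.25 to 0.033 for Olfr1428, -0.23 to 0.15 for Olfr1431 and -0.15 to 0.20 for Olfr262. For cell type and activity genes they ran from -0.66 to 0.14 for Hepacam2, -0.051 to 0.32 for Lcn2, -0.28 to 0.95 for Cd79a and -1.05 to 0.35 for Camp. They ran from -0.00017 to 0.37 for Egr1, -0.070 to 0.33 for Fos, -0.49 to 0.30 for Mki67, -0.052 to 0.076 for Omp, -0.22 to 0.22 for Ngp and -0.10 to 0.10 for Cyp2g1. For genes of the first component they ran from -0.39 to 0.75 for Rmrp, -1.15 to 0.27 for H1f2, -0.66 to 0.20 for Olfr910 and -0.58 to 0.61 for Gm9733. For Y-linked genes they ran from -1.66 to 1.91 for Uty, -2.04 to 2.13 for Eif2s3y and -1.07 to 0.98 for Kdm5d.

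With array weights, signs turned for Camp (0.091), Olfr1427 (0.035), Olfr1431 (0.065), Gm9733 (0.38), Ngp (0.098), Cyp2g1 (0.020), Eif2s3y (1.02) and Kdm5d (0.43). Without replicate 3 of both arms they turned for Olfr1427 (0.043), Olfr1431 (0.14), Gm9733 (0.16), Ngp (0.037), Eif2s3y (0.11) and Olfr262 (-0.0026). Quantile normalization turned Omp (-0.053), and median centring, which moved all genes by -0.031, turned Olfr262 (-0.013).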
